A study of Mus musculus with 4 samples.

Results

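The genes of cholesterol synthesis and sterol transport were followed in retinal cells that had been sorted by the activity of a Hes1 promoter. The list held 33 symbols and was drawn up by gene name, with no measured value in the rule. Earlier results of these data were known when it was chosen. Of these symbols, 32 were found among the 21831 genes analysed, and the remaining symbol, Msmo1, is the newer name of Sc4mol, which is among the 32. The list covers 18 enzymes that build cholesterol (7 of the mevalonate arm and 11 of the squalene and sterol arm), 5 regulators of the sterol regulatory element-binding proteins (SREBPs), 4 genes for liver X receptors and sterol exporters, 4 genes for sterol transport and storage inside the cell, and Cyp46a1, a gene of sterol turnover. Summed over the 18 enzymes, the level was 369 in EGFP-negative and 485 in EGFP-positive cells at postnatal day 1. It was 265 and 308 in the same order at postnatal day 4. The unit is FPKM, which is the fragment count scaled to transcript length and library size. These sums are as deposited. Over all genes analysed the day 4 sum was 303865 in EGFP-negative and 372004 in EGFP-positive cells. The order of the enzyme sums at day 4 therefore depends on the scaling.

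All cells came from retinas of pHes1-EGFP mice, labelled as strain FVB/N and untreated, so EGFP-positive and EGFP-negative cells carry the same transgene. In these mice a fragment of the Hes1 promoter drives a destabilized EGFP. Cells were separated into an EGFP-positive fraction (pHes1_EPC, labelled Hes1P) and an EGFP-negative fraction (pHes1_ENC, labelled Hes1N) at postnatal day 1 (P1) and postnatal day 4 (P4), and RNA-seq was done on total RNA with 1 library for each fraction at each age, 4 in all. The number of animals behind a library is not given in the sources used here, and the sort follows the reporter and not a cell surface marker. With 1 library in each group no difference has a replicate check and no p-value is given.

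Cholesterol is made from acetyl-CoA in the cytosol and endoplasmic reticulum, first through mevalonate to farnesyl diphosphate and then through squalene and lanosterol. When membrane sterol is low, the SREBP precursors are escorted to the Golgi, cut, and enter the nucleus, where they switch on the enzymes of the pathway. When oxysterols accumulate, the liver X receptors switch on exporters such as Abca1 and Abcg1. In the brain, which is supplied by its own synthesis behind a vascular barrier, glia are known as producers and exporters of cholesterol. Neurons are known there as the main cells with Cyp46a1. This account is of the brain, and the tissue here is retina.

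The fractions were checked against markers of retinal cell types. Of 9 Müller glia markers 8 were higher in pHes1_EPC by more than 1 on the log2 scale at both ages, and the summed FPKM of the list was 447 in pHes1_ENC and 1458 in pHes1_EPC at P1, and 202 and 1935 at P4. All 6 progenitor markers and all 6 markers of dividing cells were also higher by more than 1 in pHes1_EPC at both ages, whereas all 8 rod markers were lower by more than 1. The summed FPKM of the libraries over all table lines lay between 342618 and 450080, with the largest sum in P4 pHes1_EPC. The half-width of the Cufflinks 95% interval was 7.83% of the FPKM at the median over the 128 values of the members (range 2.72% to 47.4%), and 23 of these values lay outside their own interval. These intervals cover counting error only. In bulk samples such as these, fewer cells of a type and less RNA per cell cannot be told apart.

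Because the SREBPs act on promoters and many of the enzymes had lower levels at P4 in both fractions, the promoter windows of the members are shown first. RefSeq windows from 250 bases before to 50 bases after a transcription start were found for 15 of the 18 enzymes and 11 of the 14 other members, in the build GRCm38.p6. The members without a window were Fdps, Fdft1, Sqle, Abcg1, Npc1 and Stard4. The letters searched on both strands were TCACNCCAC, a form of the sterol regulatory element with N for any base, CCAAT, the letters bound by NF-Y, and GGGCGG, the core of an Sp1 site, and a gene counted as a match when any of its windows held the letters. Hmgcs1 was the only member with TCACNCCAC, which makes 6.67% of the enzymes with a window and compares with 1.44% of all 27025 genes with a window. CCAAT was found for 14 of the 15 enzymes (93.3%), with Acat2 as the exception, for 7 of the 11 other members (63.6%) and for 41.1% of all genes. At least 2 CCAAT matches were found for 9 of the 15 enzymes (60% of them), for 2 of the 11 other members (18.2%) and for 13.3% of all genes. GGGCGG was found for 14 of the 15 enzymes (93.3%), 9 of the 11 other members (81.8%) and 38.2% of all genes. The windows also differed in base composition, with a median GC content of 60.8% for the enzymes, 62.7% for the other members and 52.7% for all windows. These matches are a description of letters and not of factor binding.

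The windows printed here are those of Hmgcs1, for its TCACNCCAC match, of Idi1 and Insig1, which had the lowest P4 values relative to P1 over both fractions, and of Npc2 and Cyp46a1, the members that were highest in pHes1_EPC relative to pHes1_ENC at P4 and at P1. Capitals mark TCACNCCAC and CCAAT, the latter also in its reverse complement ATTGG, and GGGCGG is not marked. No 2 matches of the 3 motifs overlapped in these windows. In Hmgcs1 the TCACNCCAC match spans bases -137 to -129 from the transcription start, between a CCAAT match at -176 to -172 and another at -45 to -41.
Hmgcs1 (chr13:119690101-119690400, plus strand): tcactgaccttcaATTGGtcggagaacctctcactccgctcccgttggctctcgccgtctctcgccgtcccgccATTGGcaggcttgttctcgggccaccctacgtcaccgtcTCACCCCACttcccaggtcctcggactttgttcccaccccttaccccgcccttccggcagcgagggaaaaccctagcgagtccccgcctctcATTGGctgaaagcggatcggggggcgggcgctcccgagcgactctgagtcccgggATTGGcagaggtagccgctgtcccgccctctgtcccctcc
Idi1 (chr13:8885356-8885655, plus strand): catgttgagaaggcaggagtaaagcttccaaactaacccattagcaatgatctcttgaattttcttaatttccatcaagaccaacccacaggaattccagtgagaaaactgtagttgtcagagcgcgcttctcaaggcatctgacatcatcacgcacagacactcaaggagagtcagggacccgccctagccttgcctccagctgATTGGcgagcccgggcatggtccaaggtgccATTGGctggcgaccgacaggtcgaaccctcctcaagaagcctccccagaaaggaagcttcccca
Insig1 (chr5:28071162-28071461, plus strand): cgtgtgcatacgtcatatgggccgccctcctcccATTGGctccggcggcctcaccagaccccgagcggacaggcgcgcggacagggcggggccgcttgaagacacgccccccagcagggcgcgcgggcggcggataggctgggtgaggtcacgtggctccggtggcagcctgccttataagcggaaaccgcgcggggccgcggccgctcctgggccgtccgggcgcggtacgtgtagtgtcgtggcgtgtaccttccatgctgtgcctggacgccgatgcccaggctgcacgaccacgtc
Npc2 (chr12:84773063-84773362, minus strand): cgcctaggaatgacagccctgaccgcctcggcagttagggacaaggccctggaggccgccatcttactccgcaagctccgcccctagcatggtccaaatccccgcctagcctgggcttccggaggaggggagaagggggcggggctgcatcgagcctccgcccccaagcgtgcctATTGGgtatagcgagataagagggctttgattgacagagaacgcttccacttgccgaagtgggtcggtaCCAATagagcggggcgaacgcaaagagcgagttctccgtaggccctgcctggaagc
Cyp46a1 (chr12:108334066-108334365, plus strand): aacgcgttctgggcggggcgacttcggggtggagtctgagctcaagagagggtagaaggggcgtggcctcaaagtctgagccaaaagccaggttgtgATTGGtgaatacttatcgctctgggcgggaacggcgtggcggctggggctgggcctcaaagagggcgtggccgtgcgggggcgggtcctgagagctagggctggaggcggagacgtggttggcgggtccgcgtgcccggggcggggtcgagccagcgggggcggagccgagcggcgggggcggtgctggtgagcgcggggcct

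**Figure D1:**
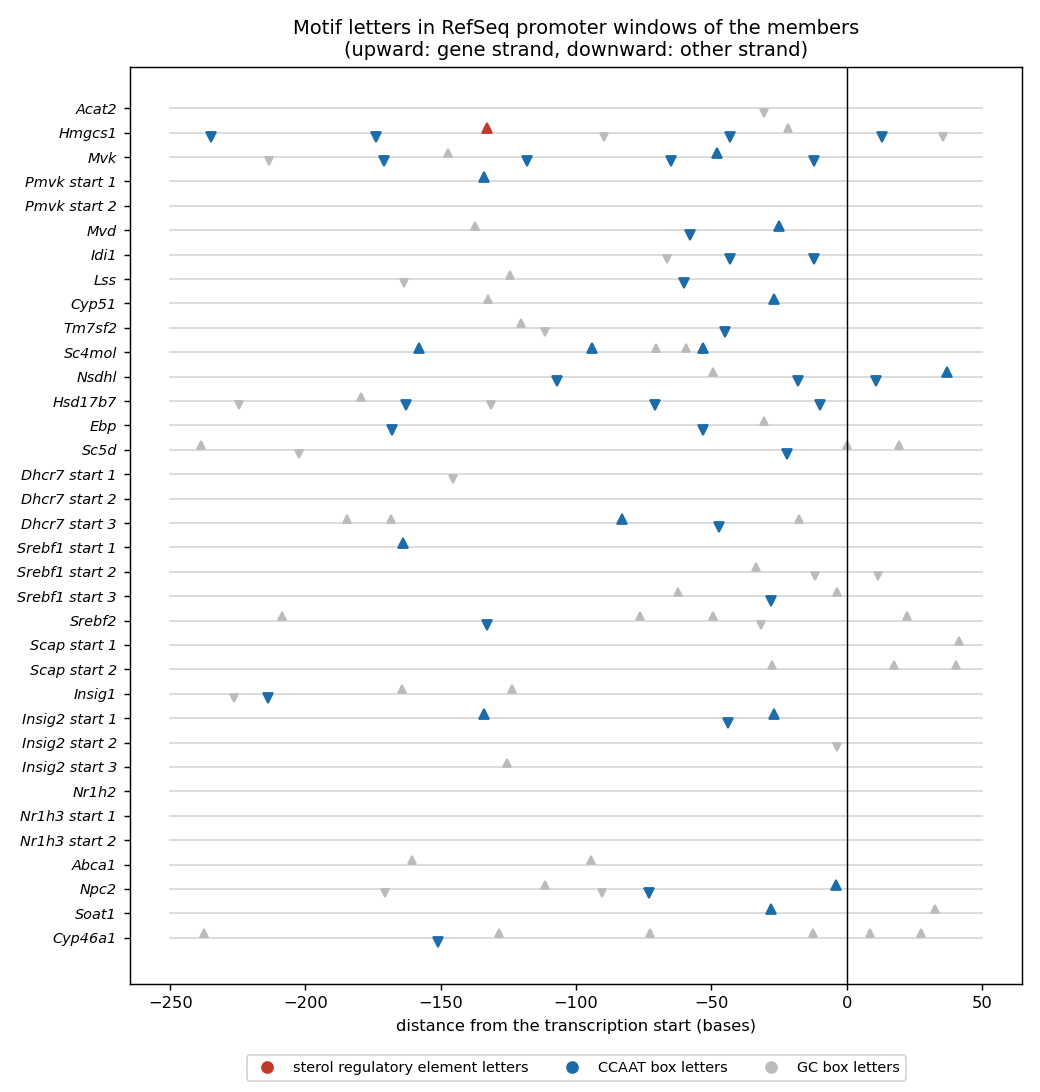
Positions of the matches in the promoter windows of the members, by distance from the transcription start in bases, with 1 line for each window and symbols for the 3 motifs. CCAAT was found for 14 of 15 enzymes and TCACNCCAC for Hmgcs1 alone.

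The first comparison asks which sterol genes differ between pHes1_EPC and pHes1_ENC at the same age. A gene was listed as higher or lower when its log2(FPKM + 1) differed by more than 1. At P1, 4 members were higher in pHes1_EPC (Idi1, Srebf1, Stard4 and Cyp46a1) and 2 were lower (Abca1 and Abcg1), where 6.1% and 6.79% of all genes were listed as higher and lower, and 11.5% and 10.6% of genes with an FPKM of 10 or more in the higher library. At P4, only Npc2 was higher and only Abcg1 was lower by this rule, against 9.85% and 5.42% of all genes and 16.6% and 10% of those with an FPKM of 10 or more. By Cufflinks intervals that do not overlap, 17 members were higher and 4 lower at P1 (22.1% and 21.8% of all genes, and 39.7% and 32.7% of genes with an FPKM of 10 or more), and 12 were higher and 10 lower at P4 (28.3% and 18.6% of all genes, and 49.2% and 30.6%). The interval rule was applied, here and below, to the deposited FPKM only. Small P4 differences called by it depend on the scaling. Fdft1 is among the 12, and its P4 difference of 0.24 became -0.03 with each library rescaled to the same total.

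At P1 the median difference of the 32 members was 0.28 and that of the 18 enzymes 0.19, beside 0.02 for the 12942 expressed genes (an FPKM of 1 or more in any library). At P4 the median was 0.13 for the members and 0.14 for the enzymes, beside 0.15 for the expressed genes. The P4 values depend on the scaling. With each library rescaled to the same total the medians at P4 became -0.15 for the members, -0.11 for the enzymes and -0.10 for the expressed genes, and the number of enzymes above 0 was 11 as deposited, 6 with the same total, 7 with median-of-ratios scaling and 8 with quantile normalization. Relative to the median of the expressed genes, the enzymes lay 0.17 higher at P1 and -0.01 at P4.

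**Figure D2:**
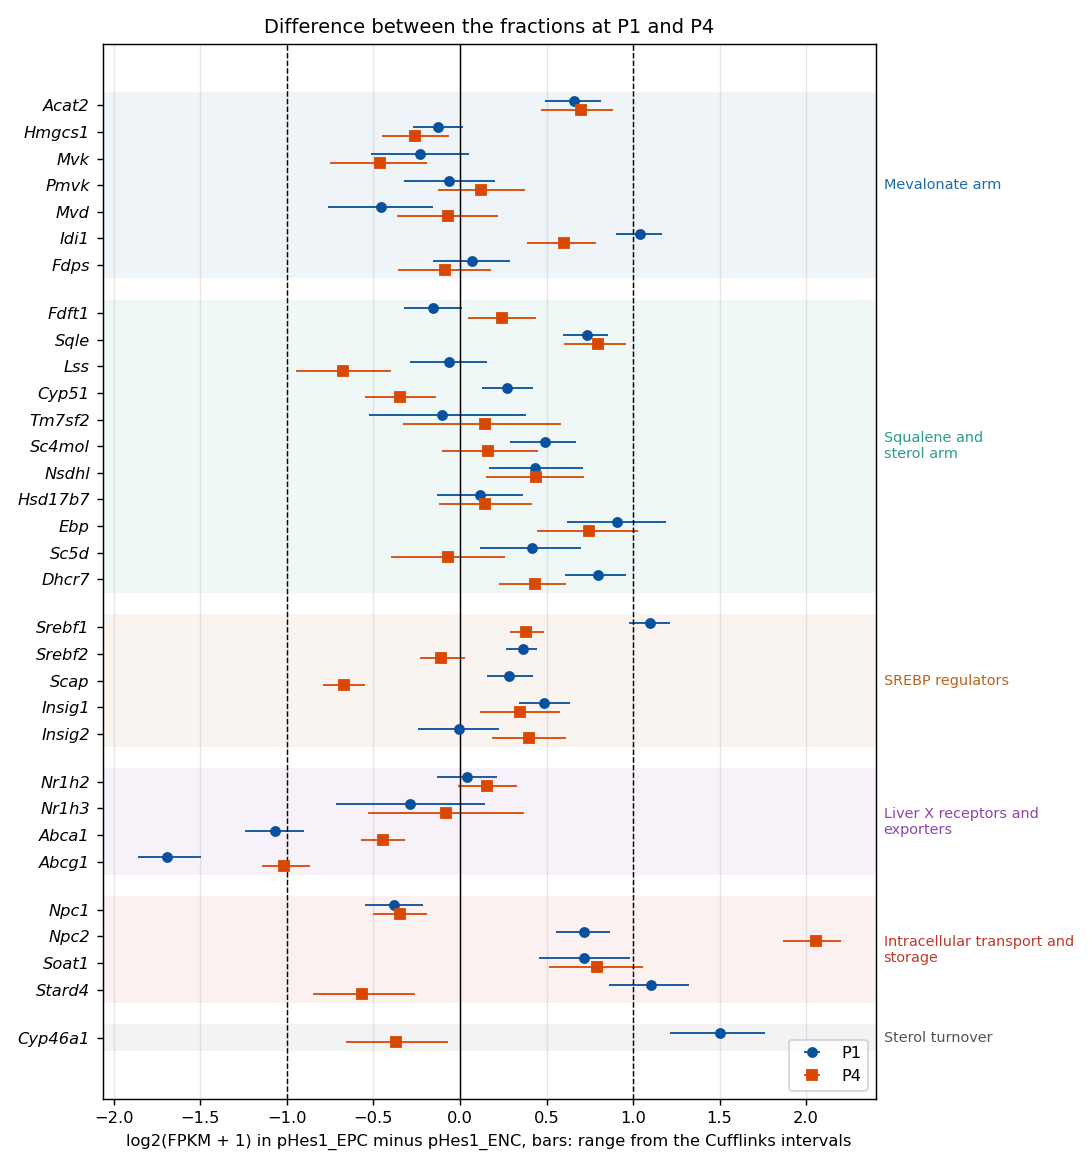
Difference pHes1_EPC minus pHes1_ENC in log2(FPKM + 1) for each of the 32 members at P1 and at P4, grouped by role, with dashed lines at 1 and -1. Cyp46a1 stood at 1.501 at P1 and -0.37 at P4, and Npc2 at 0.71 and 2.06.

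In the mevalonate arm, Acat2 and Idi1 were higher in pHes1_EPC at both ages and the other 5 enzymes were nearly level or lower. Acat2, the cytosolic thiolase that opens the pathway, was at an FPKM of 35.9 in pHes1_ENC and 57.1 in pHes1_EPC at P1, and at 19.7 and 32.6 at P4. Idi1, the isopentenyl diphosphate isomerase, was at 30.2 in pHes1_ENC and 63.2 in pHes1_EPC at P1, and at 14.6 and 22.7 at P4. The pHes1_EPC value of Idi1 was thus 2.09 times the pHes1_ENC value at P1 (range from the intervals 1.90 to 2.29) and 1.55 times at P4 (1.33 to 1.78). For both genes the 2 fractions did not overlap in their intervals at either age, and the P1 difference of Idi1, 1.04 as deposited, did not pass 1 when the libraries were scaled to the same total.

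Hmgcs1, the cytosolic synthase of hydroxymethylglutaryl-CoA, was at 38.05 in pHes1_ENC and 34.8 in pHes1_EPC at P1, and at 18.7 and 15.4 at P4. Mvk, mevalonate kinase, was at 16.3 and 13.8 at P1 and at 22.3 and 15.9 at P4, again with pHes1_ENC first. In both genes the intervals of the fractions overlapped at P1 and pHes1_EPC was lower at P4. Pmvk, the phosphomevalonate kinase, was at 20.4 and 19.6 at P1 and at 22.2 and 24.2 at P4. Mvd, the mevalonate diphosphate decarboxylase, was at 9.48 and 6.63 at P1 and at 9.45 and 8.97 at P4. Fdps, farnesyl diphosphate synthase, was at 38.7 and 40.6 at P1 and at 29.8 and 28.0 at P4. Among these last 3, the only fraction difference outside the intervals was the lower value of Mvd in pHes1_EPC at P1.

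In the squalene and sterol arm, 7 of 11 enzymes were higher in pHes1_EPC at P1 with intervals apart and none was lower, while at P4 5 were higher and 2 lower. Among all genes with an FPKM of 10 or more in the higher library, the shares by the same rule were 39.7% higher and 32.7% lower at P1, and 49.2% and 30.6% at P4. Sqle, squalene epoxidase, had an FPKM of 38.2 in pHes1_ENC and 64.3 in pHes1_EPC at P1, against 20.5 and 36.4 at P4. Ebp, the sterol isomerase, had 9.25 and 18.2 at P1 and 10.8 and 18.8 at P4. Dhcr7, the reductase that makes cholesterol from its dehydro precursor, had 18.5 and 32.8 at P1 and 17.6 and 24.1 at P4. These 3 enzymes and Nsdhl were higher in pHes1_EPC at both ages with intervals apart, and Ebp had the largest P1 difference of the arm, 0.91.

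Nsdhl, a dehydrogenase of the C4 demethylation steps, had an FPKM of 11.7 in pHes1_ENC and 16.2 in pHes1_EPC at P1, against 8.57 and 11.96 at P4. Sc4mol, the methylsterol monooxygenase of the same steps, had 27.7 and 39.3 at P1 and 19.4 and 21.8 at P4. Hsd17b7, their ketoreductase, had 4.80 and 5.30 at P1 and 3.54 and 4.01 at P4. Within this group of consecutive steps, Sc4mol was apart between fractions at P1 alone and Hsd17b7 at neither age.

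Lss and Cyp51 act one after the other on the first sterols of the pathway, and both were lower in pHes1_EPC at P4. Lss, lanosterol synthase, had an FPKM of 13.1 in pHes1_ENC and 12.5 in pHes1_EPC at P1, against 10.2 and 6.02 at P4, with overlapping intervals at P1 only. Cyp51, the lanosterol demethylase, had 19.6 and 23.9 at P1 and 13.5 and 10.5 at P4, so pHes1_EPC was the higher fraction at P1 and the lower at P4, outside the intervals at both ages. Fdft1, squalene synthase, had 23.6 and 21.0 at P1 and 12.6 and 15.1 at P4. Tm7sf2, a sterol reductase, had 6.53 and 6.00 at P1 and 4.86 and 5.49 at P4. Sc5d, the sterol desaturase, had 7.28 and 10.03 at P1 and 6.90 and 6.54 at P4. In these last 3 enzymes, Fdft1 was apart at P4 and Sc5d at P1, each higher in pHes1_EPC, and Tm7sf2 overlapped at both ages. Exons of Fdft1 overlap those of Ctsb on the opposite strand over 769 bases, and Ctsb had an FPKM of 19.4 in pHes1_ENC and 31.7 in pHes1_EPC at P1, against 29.7 and 46.5 at P4. The sign of the P4 difference of Fdft1 turned with the same total (0.24 as deposited and -0.03).

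**Figure D3:**
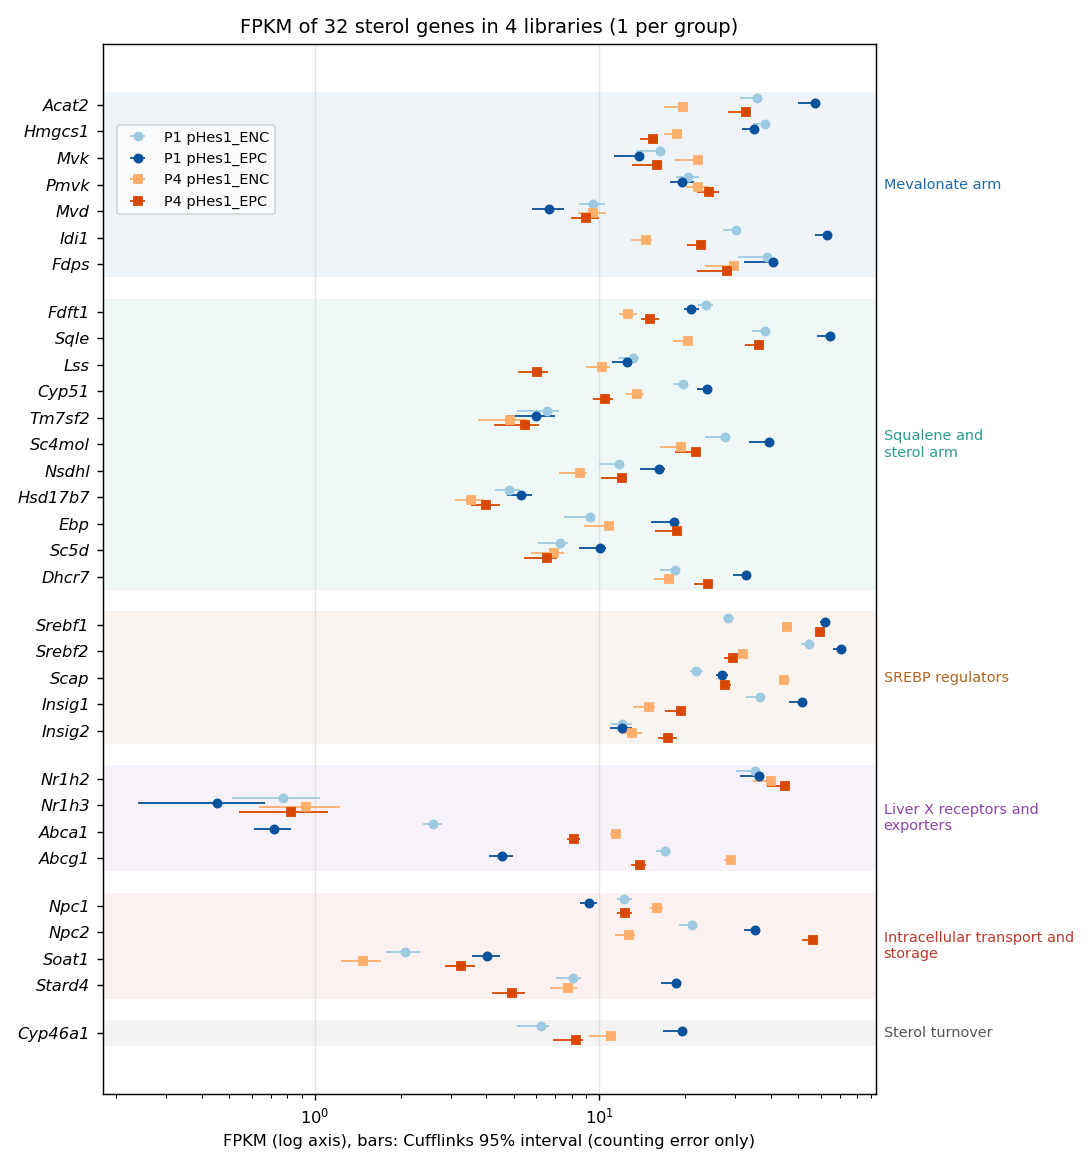
FPKM of each member in the 4 libraries on a log10 axis, with the Cufflinks 95% interval as a bar. The members span an FPKM of 0.453 (Nr1h3 in P1 pHes1_EPC) to 70.4 (Srebf2 in P1 pHes1_EPC), and most intervals are short beside the distances between libraries.

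Among the SREBP regulators, Srebf1 stood out at P1 and Scap turned between the ages. Srebf1, which encodes the SREBP proteins known mainly for fatty acid synthesis, had an FPKM of 28.4 in pHes1_ENC and 61.8 in pHes1_EPC at P1, against 45.5 and 59.7 at P4. This was 2.18 times as high in pHes1_EPC at P1 (range 2.00 to 2.37) and 1.31 times at P4 (1.23 to 1.41). As deposited, only the pHes1_ENC values were apart between the ages. Srebf2, the SREBP gene known mainly for the cholesterol enzymes, had 54.5 and 70.4 at P1 and 31.95 and 29.5 at P4, with overlapping intervals at P4. With 1 table line kept for each symbol, Srebf2 was the highest of the 32 members in both P1 libraries and Srebf1 in both P4 libraries. Hmgcs1 is on 2 lines, and with these summed it had 76.1 in P1 pHes1_ENC and was above Srebf2 there, while the other 3 libraries kept their highest member.

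Scap, the escort of the SREBP precursors, had an FPKM of 21.8 in pHes1_ENC and 26.8 in pHes1_EPC at P1, against 44.5 and 27.6 at P4. It was 1.23 times as high in pHes1_EPC at P1 (range 1.12 to 1.36) and 1.61 times as high in pHes1_ENC at P4 (1.48 to 1.76). As deposited, its pHes1_EPC values overlapped between the ages, with a difference of 0.04 that became -0.29 with the same total. Its pHes1_ENC value at P4 was the highest of the 4. The exons of Scap overlap those of 5830462I19Rik on the opposite strand over 985 bases, and since the library preparation does not mark the strand, reads of the 2 genes cannot be told apart there. Insig1, which holds the SREBP precursors in the endoplasmic reticulum, had 36.6 and 51.6 at P1 and 14.9 and 19.3 at P4. Insig2, its relative, had 12.01 and 11.96 at P1 and 13.0 and 17.4 at P4. Insig1 was thus higher in pHes1_EPC at both ages and Insig2 at P4 only, by intervals.

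The sterol exporters Abca1 and Abcg1 were lower in pHes1_EPC at both ages and higher at P4 than at P1 in both fractions, and these 4 signs held for both genes under every scaling tried. Abca1, which loads cholesterol onto apolipoproteins (chr4:53043661-53172767 in mm9, 50 exons), had an FPKM of 2.604 in pHes1_ENC and 0.716 in pHes1_EPC at P1, against 11.4 and 8.14 at P4. The pHes1_ENC value was 3.64 times the pHes1_EPC value at P1 (range 2.92 to 4.60) and 1.40 times at P4 (1.27 to 1.55). Abcg1, which passes cholesterol to lipoprotein particles (chr17:31194639-31254926), had 16.9 and 4.54 at P1 and 29.1 and 13.8 at P4. Its pHes1_ENC value was 3.73 times as high at P1 (3.18 to 4.28) and 2.1 times at P4 (1.88 to 2.31).

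The receptors themselves showed less. Nr1h2, liver X receptor beta, had an FPKM of 35.1 in pHes1_ENC and 36.2 in pHes1_EPC at P1, against 40.1 and 44.9 at P4, with overlapping intervals between fractions at both ages. Nr1h3, liver X receptor alpha, was the lowest member in every library, at 0.774 and 0.453 at P1 and 0.933 and 0.827 at P4, with half-widths of 31.7% to 47.4% of the FPKM, and no difference was detectable at this depth. The rod markers differed in the same directions as the exporters. All 8 were lower in pHes1_EPC at both ages and higher at P4 in both fractions, with a summed FPKM of 784 and 4155 in pHes1_ENC at P1 and P4 and of 46.4 and 787 in pHes1_EPC. The 4 cone markers had the same 4 directions, with sums of 211 and 706 in pHes1_ENC and of 22.0 and 222 in pHes1_EPC. Gngt2 alone made most of these sums, with 201.7 and 692.0 in pHes1_ENC and 19.9 and 216.3 in pHes1_EPC. Pde6h was level between the fractions at P4 (-0.01). The 4 red blood cell markers were also lower in pHes1_EPC at both ages, with sums of 185 and 502 in pHes1_ENC and of 0.568 and 6.65 in pHes1_EPC. The part of these cell types in the exporter values was not tested.

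Of the 4 genes for transport and storage inside the cell, Npc2 and Soat1 were higher in pHes1_EPC at both ages, Npc1 was lower at both, and Stard4 turned between the ages. Npc2, the soluble protein that takes cholesterol from the lysosome lumen to the membrane protein Npc1 (chr12:86095509-86114062 in mm9, minus strand, 4 exons), had an FPKM of 21.1 in pHes1_ENC and 35.3 in pHes1_EPC at P1, against 12.7 and 56.2 at P4. The ratio was 1.67 at P1 (range 1.49 to 1.87) and 4.42 at P4 (3.84 to 4.91), the widest gap of any member at P4. From P1 to P4 the level was higher in pHes1_EPC and lower in pHes1_ENC, both outside the intervals. Npc1 had 12.2 and 9.15 at P1 and 15.9 and 12.3 at P4, so the partner genes differed in opposite directions between the fractions.

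Microglia express Npc2 strongly, and the 6 microglia markers were low in all libraries, with a summed FPKM of 2.19 in pHes1_ENC and 9.94 in pHes1_EPC at P1, against 6.78 and 9.58 at P4, none at 0. The 3 pigment cell markers found summed to 3.86 and 1.28 at P1 and to 6.35 and 22.8 at P4, with Mlana at 0 in both pHes1_ENC libraries. The 9 Müller glia markers summed to 202 in pHes1_ENC and 1935 in pHes1_EPC at P4. The part of these cell types in the Npc2 values was not tested.

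Soat1, which esterifies cholesterol for storage, had an FPKM of 2.07 in pHes1_ENC and 4.03 in pHes1_EPC at P1, against 1.47 and 3.27 at P4. Its P4 difference of 0.79 passed 1 only when a smaller pseudocount or none was used, since its level is low. Stard4, a soluble carrier of sterols between membranes, had 8.08 and 18.5 at P1 and 7.76 and 4.91 at P4. Its pHes1_EPC value was 2.29 times the pHes1_ENC value at P1 (range 1.91 to 2.72), and at P4 the pHes1_ENC value was 1.58 times the pHes1_EPC value (1.23 to 2.00). The high value of Stard4 was found in P1 pHes1_EPC alone, and its 2 pHes1_ENC values overlapped.

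Cyp46a1, which hydroxylates cholesterol so that it can leave neural tissue (chr12:109572591-109600444 in mm9, plus strand, 15 exons), had an FPKM of 6.23 in pHes1_ENC and 19.5 in pHes1_EPC at P1, against 11.0 and 8.26 at P4. The pHes1_EPC value was 3.12 times the pHes1_ENC value at P1 (range 2.51 to 3.86), the largest difference of a member at that age with pHes1_EPC higher, and at P4 the pHes1_ENC value was 1.33 times as high (1.06 to 1.67). The change of its fraction difference between the ages, -1.87, was the largest of the 32 members, followed by Stard4 (-1.67), Npc2 (1.35), Scap (-0.96) and Srebf1 (-0.71). Higher in pHes1_EPC at P1 and lower at P4, outside the intervals at both ages, were 4 of 32 members (Cyp51, Scap, Stard4 and Cyp46a1), or 12.5%, beside 1.92% of genes with an FPKM of 10 or more in some library and 1.08% of all genes. The reverse order was found for 0 members and for 2.37% of all genes.

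The second comparison asks how the sterol genes differ between P1 and P4 within each fraction. The comparisons in pHes1_EPC and in pHes1_ENC share no library with each other, but each shares its libraries with the fraction comparisons above. Most enzymes were lower at P4 in both fractions, and the exporters were higher. In pHes1_EPC, 7 members were lower by more than 1 (Hmgcs1, Idi1, Cyp51, Srebf2, Insig1, Stard4 and Cyp46a1) and 2 were higher (Abca1 and Abcg1), beside 2.57% of all genes lower and 4.17% higher, and 4.72% and 7.56% of genes with an FPKM of 10 or more in the higher library. In pHes1_ENC, Insig1 alone was lower by more than 1 and Abca1 alone was higher, beside 5.94% and 2.77% of all genes, and 6.79% and 6.03% of those at 10 or more. The count of 1 lower in pHes1_ENC rests on the threshold, since Idi1 stood at -0.999 and Hmgcs1 at -0.99, and it became 3 with a pseudocount of 0.1 or a ratio above 2, 4 with quantile normalization and 5 with the same total. The count of 7 in pHes1_EPC became 8, 8, 10 and 11 under these settings. By intervals that do not overlap, 17 members were lower and 8 higher in pHes1_EPC (14.8% and 27% of all genes, 23.2% and 53% of those at 10 or more), and 15 lower and 8 higher in pHes1_ENC (21.1% and 16.9%, 25.8% and 36.9%). These interval counts depend on the deposited scaling. Pmvk and Nr1h2, both among the 8 higher in pHes1_EPC, stood at 0.30 as deposited and at -0.03 with the same total.

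Of the 18 enzymes, 14 were lower at P4 in both fractions (77.8%), where this was so for 22.7% of the genes with an FPKM of 10 or more in some library. With intervals apart in both fractions it was 11 of 18 enzymes (61.1%), beside 13.1% of those genes. The number lower in both fractions was 15 with the same total, 14 with median-of-ratios scaling and 13 with quantile normalization. The median difference of the enzymes was -0.49 in pHes1_EPC and -0.36 in pHes1_ENC, beside 0.17 and -0.01 for the expressed genes. Relative to the median of the expressed genes it was -0.66 and -0.36. The same total moved the median of the expressed genes to -0.11 in pHes1_EPC and -0.13 in pHes1_ENC, and the enzymes then lay -0.72 and -0.40 from it.

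**Figure D4:**
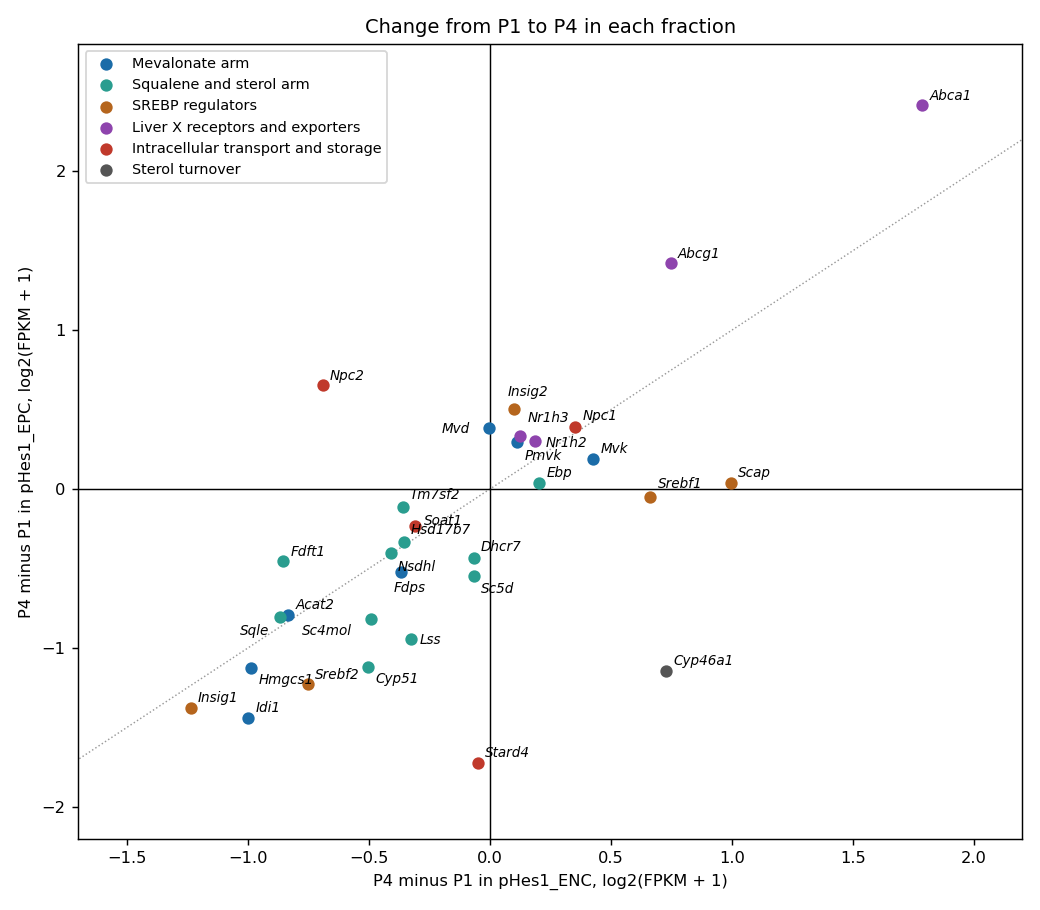
Difference P4 minus P1 in log2(FPKM + 1) of each member in pHes1_ENC (horizontal axis) and in pHes1_EPC (vertical axis), coloured by role, with the diagonal dotted. The enzymes gather in the lower left, Abca1 and Abcg1 stand in the upper right, and Npc2, Stard4 and Cyp46a1 lie away from the diagonal.

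Insig1 and Idi1 had the lowest P4 values relative to P1 over both fractions. Insig1 differed by -1.37 in pHes1_EPC and -1.24 in pHes1_ENC, and Idi1 by -1.44 and -0.999. Among the other enzymes Hmgcs1 followed with -1.12 and -0.99, and Sqle with -0.81 and -0.87. Idi1, Sqle, Hmgcs1 and Insig1 are among the well-known targets of SREBP-2. The gene of SREBP-2, Srebf2, differed by -1.23 in pHes1_EPC and -0.75 in pHes1_ENC. The part of SREBP-2 in the enzyme values was not tested. Enzymes outside this pattern were Mvk, Pmvk and Ebp, which were not lower at P4 in either fraction as deposited but were lower in pHes1_EPC with the same total, and Mvd, which was 0.39 higher in pHes1_EPC and level in pHes1_ENC.

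Some of these levels rest on sequence that is not particular to the gene. Reads were 36 bases long and up to 50 positions were kept for each, and of the 32-base words in the longest coding transcript the share found elsewhere in the mm9 genome was 85.6% for Idi1, 81.1% for Fdps, 45.9% for Insig1, 39.6% for Acat2 and 30.2% for Fdft1. Exons of Lss, Srebf1, Npc1, Tm7sf2 and Nr1h3 also overlap other genes, over 34 to 532 bases. The share of words was 6.54% for Sc5d and at most 2.5% for the others with a transcript. Hmgcs1 was on 2 table lines of an unlocalized part of chromosome 13 with the same FPKM, and its share was not computed. Acat3, the near-identical neighbour of Acat2, had an FPKM of 11.0 in pHes1_ENC and 18.2 in pHes1_EPC at P1, against 5.90 and 8.28 at P4. Without these 6 members, a choice made after the data had been seen, 4 of the remaining 26 were lower by more than 1 in pHes1_EPC at P4 and 0 in pHes1_ENC, and the median of the remaining enzymes was -0.40 and -0.33.

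Markers of dividing cells were lower at P4 as well. All 6 were lower in both fractions outside the intervals, with a summed FPKM of 227 in pHes1_ENC and 978 in pHes1_EPC at P1, against 61.99 and 398 at P4. The 6 progenitor markers summed to 421 and 2185 at P1 and to 124 and 1123 at P4. In the same fraction, pHes1_EPC, the summed FPKM of the 18 enzymes was 485 at P1 and 308 at P4. The part of the dividing cells in the enzyme values was not tested.

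The highest of the 4 libraries was P1 pHes1_EPC for 16 members, 10 of them enzymes, and the lowest was P4 pHes1_ENC for 12 members, 9 of them enzymes. Both were true of 9 members, the enzymes Acat2, Idi1, Sqle, Sc4mol, Nsdhl, Hsd17b7 and Dhcr7 and the genes Insig1 and Soat1. Abca1 and Abcg1 had the opposite extremes, lowest in P1 pHes1_EPC and highest in P4 pHes1_ENC, as had Mvk, Npc1 and, at its low level, Nr1h3. These counts were made with the deposited scaling only. They were not made over all genes, so whether they are unusual cannot be said. Summed over all 32 members the FPKM was 628 in pHes1_ENC and 836 in pHes1_EPC at P1, and 545 and 614 at P4. These sums are as deposited too. At P4 their order depends on the scaling, since all genes analysed summed to 303865 in pHes1_ENC and 372004 in pHes1_EPC.

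Other genes of the pathway were taken from lists kept apart from the members. Of 11 other sterol and isoprenoid enzymes, 3 were higher in pHes1_EPC by more than 1 at P1 and 3 at P4 (Lbr, Cyp39a1 and Cyp7b1 at both ages), and none was lower. For this and the next lists the shares of all genes are 6.1% higher and 6.79% lower at P1, and 9.85% and 5.42% at P4, or 11.5% and 10.6%, and 16.6% and 10%, of genes with an FPKM of 10 or more. Cyp39a1, an oxysterol hydroxylase, had an FPKM of 3.59 in pHes1_ENC and 14.1 in pHes1_EPC at P1, against 1.46 and 11.7 at P4. Lbr, a nuclear envelope protein that is also a sterol reductase, had 24 and 74.8 at P1 and 10.01 and 34.8 at P4, and it was lower at P4 by more than 1 in both fractions. Dhdds, of dolichol synthesis, and Ggps1, of geranylgeranyl diphosphate synthesis, differed the other way at P4, by -0.94 and -0.50. Both sterol reductases that share a step, Lbr and the member Tm7sf2, were thus measured, and Lbr was the higher in all 4 libraries per unit of transcript length.

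Of 12 genes of SREBP processing and sterol sensing, none was higher in pHes1_EPC by more than 1 at either age and Paqr3 was lower at both. Paqr3, a Golgi anchor of the escort complex, had an FPKM of 11.5 in pHes1_ENC and 3.19 in pHes1_EPC at P1, against 16.5 and 4.43 at P4. Tmem97, which binds Npc1, had 23.6 and 43.8 at P1 and 18.6 and 36.2 at P4. Among 18 other sterol transport genes, 2 were higher and 4 lower in pHes1_EPC at P1, and 1 higher and 3 lower at P4. The higher genes, named after their values were seen, were Scarb1, a lipoprotein receptor, at 1.47 at P1 and -0.14 at P4, and Stard5, a sterol carrier, at 1.31 and 1.61. Abcg4, a relative of Abcg1 known from neurons, had 11.0 and 2.83 at P1 and 39.6 and 6.87 at P4, and so resembled Abcg1 in all 4 directions. The lipoprotein receptors Vldlr and Lrp8 differed by -1.24 and -1.22 at P4.

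**Figure D5:**
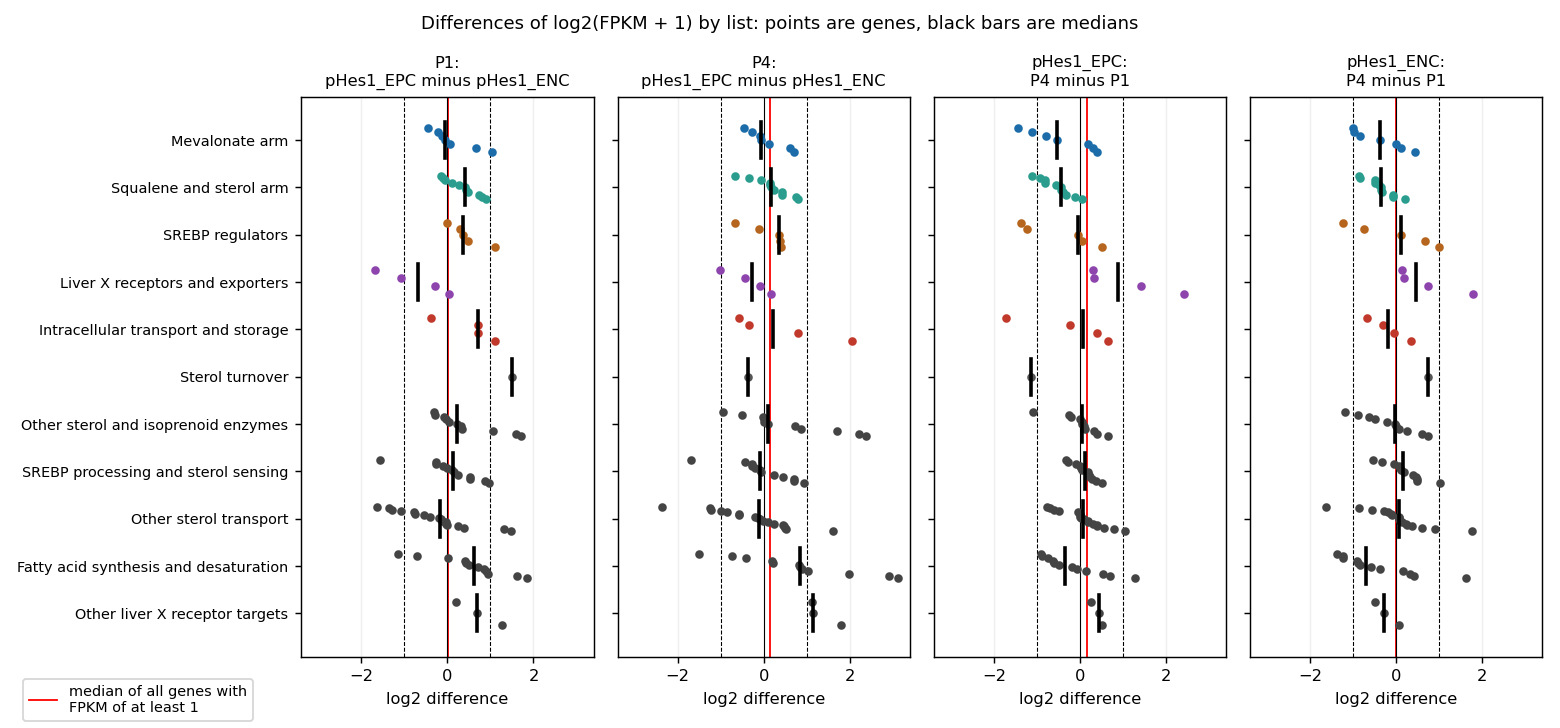
Difference in log2 scale for the genes of each list (points) and the list median (black bar) in the 4 comparisons, with the median of the expressed genes as a red line and dashed lines at 1 and -1. The list of liver X receptors and exporters has medians of -0.68 and -0.26 between fractions and of 0.88 and 0.47 between ages.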

How the data were processed

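RNA-seq was analyzed in 4 libraries, 1 for each fraction and age. Per the labels and the paper's methods, the authors prepared total RNA with random primers, read 36 bases from a single end, converted reads with bcl2fastq 1.8.4, aligned them to NCBI37/mm9 with TopHat2 2.0.8b, keeping up to 50 positions, and ran Cufflinks 2.1.1 with default options. The deposited values are FPKM per gene with a 95% interval and a status, and were used without further scaling. Read counts were not used here, so depth is read only from the intervals.

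Of 23021 lines, 793 of small RNAs were left out. For the 234 symbols still on several lines the highest line was kept. Differences are of log2(FPKM + 1), which understates changes of low genes. A gene was listed beyond 1. Ratio ranges divide the lower bound of an interval by the upper bound of the other, and the reverse. No significance test was run. Coordinates of genes are those of the tables in mm9, with starts counted from 1, and promoters are RefSeq windows in GRCm38.p6, so the builds are not mixed.

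All members are described. Ratios are printed for members beyond 1 at P1 or P4 and for the 5 with the largest change of the fraction difference. In other lists at most 4 genes that reach an FPKM of 10 are named by the size of the P4 difference. Also named, after values were seen, were Cyp7b1, Scarb1, Stard5 and Pltp, which complete counts, and Acly and Acaca, which were lower in pHes1_EPC at P4. The members and lists were chosen with earlier results of these data known. Alternative settings used a smaller pseudocount (0.1), a ratio above 2, an FPKM of at least 1, status OK, other scalings, non-overlapping intervals, summed lines and leaving out members that share sequence, the last chosen after the data had been seen. The listing rule was also run on simulated counts with planted changes. Those counts held no variation between animals or sorts, so the run is no check of the calls made here. Python 3.11.15, numpy 2.4.6, pandas 2.3.3 and matplotlib 3.10.9 were used.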

Additional observations from a re-analysis of the deposited data

Results flagged for a closer look

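For 4 members the fraction difference had opposite signs at the 2 ages, with intervals that do not overlap at either age. In log2(FPKM + 1), pHes1_EPC minus pHes1_ENC, Cyp51 stood at 0.27 at P1 and -0.34 at P4, Scap at 0.29 and -0.67, Stard4 at 1.10 and -0.57, and Cyp46a1 at 1.501 and -0.37. These signs were the same under every scaling tried. With 1 library in each group the difference between the ages was not tested.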

How the results depend on the processing

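No direction of a member listed beyond 1 was reversed under any alternative run. No paired analysis was possible because each group holds 1 library and the labels give no replicate numbers, and no library could be left out. Between the fractions, quantile normalization gave 1 member lower at P1, because Abca1 no longer passed 1. At P4 a pseudocount of 0.1 and a ratio above 2 gave 2 members higher each (Soat1 joined), and the same total gave 2 lower (Lss joined), with medians of -0.15 for the members and -0.11 for the enzymes. Quantile normalization gave a median of -0.11 for the members. Intervals that do not overlap gave 17 higher and 4 lower at P1, and 12 and 10 at P4. All interval counts rest on the deposited scaling, so they are no check against another scaling. Between the ages in pHes1_EPC, the same total gave 11 members lower and medians of -0.72 for the members and -0.83 for the enzymes, and intervals gave 17 lower and 8 higher. Leaving out the members that share sequence gave 4 lower and a median of -0.080. In pHes1_ENC, a pseudocount of 0.1 and a ratio above 2 gave 2 higher and 3 lower each, median-of-ratios scaling gave 2 higher, quantile normalization 4 lower, the same total 5 lower, summed lines 2 lower, intervals 8 higher and 15 lower, and leaving out members that share sequence 0 lower. In that fraction Scap, Idi1 and Hmgcs1 lie next to the threshold. Of 128 values of single members, 52 moved by more than their interval with the same total, 17 with median-of-ratios scaling, 17 with quantile normalization, and 3 each with the smaller pseudocount or none. Nr1h3 is too low for a difference to be detected, and a difference within 1 library per group cannot be told from variation between animals or sorts.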

Other observations

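Genes of fatty acid synthesis and desaturation share the SREBP regulators with the sterol enzymes. Of 12 genes on this list, 2 were higher in pHes1_EPC by more than 1 and 1 lower at P1, and 4 were higher and 1 lower at P4, beside 11.5% higher and 10.6% lower at P1 and 16.6% and 10% at P4 of all genes with an FPKM of 10 or more. The list had medians of 0.61 and 0.84, beside 0.19 and 0.14 for the 18 sterol enzymes. Acsl3, an acyl-CoA synthetase, had an FPKM of 56.9 in pHes1_ENC and 207.7 in pHes1_EPC at P1, against 37.6 and 336.8 at P4. Elovl5, an elongase, had 18.1 and 57.6 at P1 and 6.38 and 55.0 at P4. Scd2, a desaturase, had 206.8 and 400.9 at P1 and 87.6 and 351.5 at P4. At P4, 9 of the 12 genes were above 0 and 3 below. Me1, malic enzyme, went the other way at both ages, with 3.82 and 1.16 at P1 and 13.9 and 4.25 at P4. Acly also did so, with 85.1 and 51.3 at P1 and 94.9 and 56.4 at P4. Acaca was higher in pHes1_EPC at P1 (8.10 and 11.9) and lower at P4 (11.2 and 8.23).

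All 3 other liver X receptor targets were higher in pHes1_EPC by more than 1 at P4, beside 9.85% of all genes, whereas Abca1 and Abcg1 were lower. At P1 only Pltp passed 1, at 1.26, with Lpcat3 at 0.69 and Mylip at 0.21, beside 6.1% of all genes. Mylip, a ubiquitin ligase for lipoprotein receptors, had an FPKM of 8.61 in pHes1_ENC and 20.2 in pHes1_EPC at P4, and Lpcat3, a phospholipid acyltransferase, had 6.41 and 15.2. Pltp was low, with 0.05 in P4 pHes1_ENC, where its interval reached 0, and 2.65 in P4 pHes1_EPC. No difference between these lists was tested.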
